A study of Mus musculus with 2 samples.

Results

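The transforming growth factor beta (TGF-beta) genes described here are the 3 ligands Tgfb1, Tgfb2 and Tgfb3, the 3 receptors Tgfbr1, Tgfbr2 and Tgfbr3, and the 3 target genes Tgfbi, Skil and Smad7. They were taken by gene name from the probe spots of 2 mouse microarrays, and all 9 were found, at 13 probes on 40 spots of each array. All 9 were among the 20989 features tested (a feature is a gene, or an unnamed transcript, at its brightest probe). Every one of the 13 probes was well above background in all 4 channels, and the weakest channel of a probe was between 4.27 and 532 times its local background.

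Both RNA sources were dissected ureters of NMRI embryos at E18.5. Rbpj-cKO embryos had the genotype Tbx18(cre/+);Rbpj(fl/fl), and controls had the genotype Rbpj(fl/?), in which the second allele is not specified. Cre is driven by Tbx18, a gene of the undifferentiated mesenchyme that surrounds the ureteric epithelium, so the epithelium is not a target of the deletion, and Rbpj-cKO embryos also carry 1 Tbx18 allele with cre that the controls lack. One array compared male Rbpj-cKO RNA (AlexaFluor647) with male control RNA (AlexaFluor555), and the other compared female Rbpj-cKO RNA (AlexaFluor555) with female control RNA (AlexaFluor647). The labels do not give the number of embryos behind an RNA, so the SD between the 2 arrays may hold sex, dye, embryo and technical variation, which cannot be told apart. Rbpj had log2 ratios of -1.58 and -0.93 of Rbpj-cKO over control on the male and the female array (limma adjusted p = 0.0760). The sources used here do not say whether its probe lies in the deleted part.

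TGF-beta ligands are secreted in a latent form and, once released, bring together the receptors TGFBR2 and TGFBR1, whose kinase activity sends Smad proteins to the nucleus. The co-receptor TGFBR3, or betaglycan, presents ligand to them. Smad7 and Skil are induced by the pathway and feed back on it, Smad7 at the receptor and the Skil product SnoN at the Smad complex in the nucleus. Tgfbi encodes a secreted matrix protein named for its induction by TGF-beta. The pathway is known for its roles in mesenchyme and in smooth muscle differentiation, and RBPJ is the DNA-binding partner of activated Notch receptors. The question here is how these genes compare between ureters with and without the mesenchymal Rbpj deletion.

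The probes below were read from the scanner files and show which part of a transcript was measured for genes where the probe matters to the result. The first pair show how alike ligand probes are: the Tgfb1 probe (chr7:26489877-26489936, plus strand, mm9) and the tested Tgfb2 probe (chr1:188449333-188449392, minus strand) both lie in the coding part for the mature growth factor. Capitals mark bases that are identical when the probes are aligned without gaps, 28 of 41 overlapping bases, or 68.3%.
Tgfb1: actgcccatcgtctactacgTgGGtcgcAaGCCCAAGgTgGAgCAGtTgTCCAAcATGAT
Tgfb2: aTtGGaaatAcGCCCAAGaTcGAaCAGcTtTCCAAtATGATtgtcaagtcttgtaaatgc
The other Tgfb2 probe shared 21 of 52 bases with the Tgfb1 probe at best. The second pair are the dimmer probes of Tgfbr2 (chr9:115999496-115999555, minus strand) and Skil (chr3:31016390-31016449, plus strand), which are set against the brighter probe of the same gene below. The capitals in the Tgfbr2 probe mark the stop codon, so that probe ends with the coding sequence.
Tgfbr2: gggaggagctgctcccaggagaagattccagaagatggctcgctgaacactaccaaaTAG
Skil: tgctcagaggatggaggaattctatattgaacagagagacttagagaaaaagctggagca

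None of the 9 genes passed the test over all features (limma, adjusted p under 0.05). Over all features 27 passed, 0.129% of those tested, with 9 higher and 18 lower in Rbpj-cKO ureters. At an unadjusted p under 0.05 there was 1 gene of the 9, Tgfbi, against 708 features in all, or 3.37%. Levels below are normalized log2 intensities, and ratios are log2 of Rbpj-cKO over control with the SD over 2 arrays. The levels of one probe are not set against those of another, since probes differ in brightness.

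Tgfbi was the gene furthest from 0. Its level was 15.36 and 15.19 in Rbpj-cKO ureters (male and female) and 15.89 and 15.82 in control ureters. Both Rbpj-cKO samples were below both controls. The ratios were -0.53 (male array) and -0.63 (female array), and their mean was -0.58 ± 0.07 (SD, n = 2). On the linear scale Rbpj-cKO ureters were 1.49-fold lower. The limma 95% interval of the mean ran from -1.0 to -0.15, the unadjusted limma p was 0.0119 and the limma adjusted p was 0.964, so the difference did not pass over all features. As many as 217 features, 1.03%, had a mean at or below that of Tgfbi, and 120, 0.572%, were at or below -0.53 on both arrays. The only Tgfbi probe lies at chr13:56740460-56740519 (mm9) and has a single spot. With each array centred on its median in place of loess (a fit that removes dye differences along the intensity range), the Tgfbi ratios were -0.07 (male array) and -1.0 (female array). In RNA of whole ureters, fewer cells of a type and less RNA per cell cannot be told apart.

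**Figure D1:**
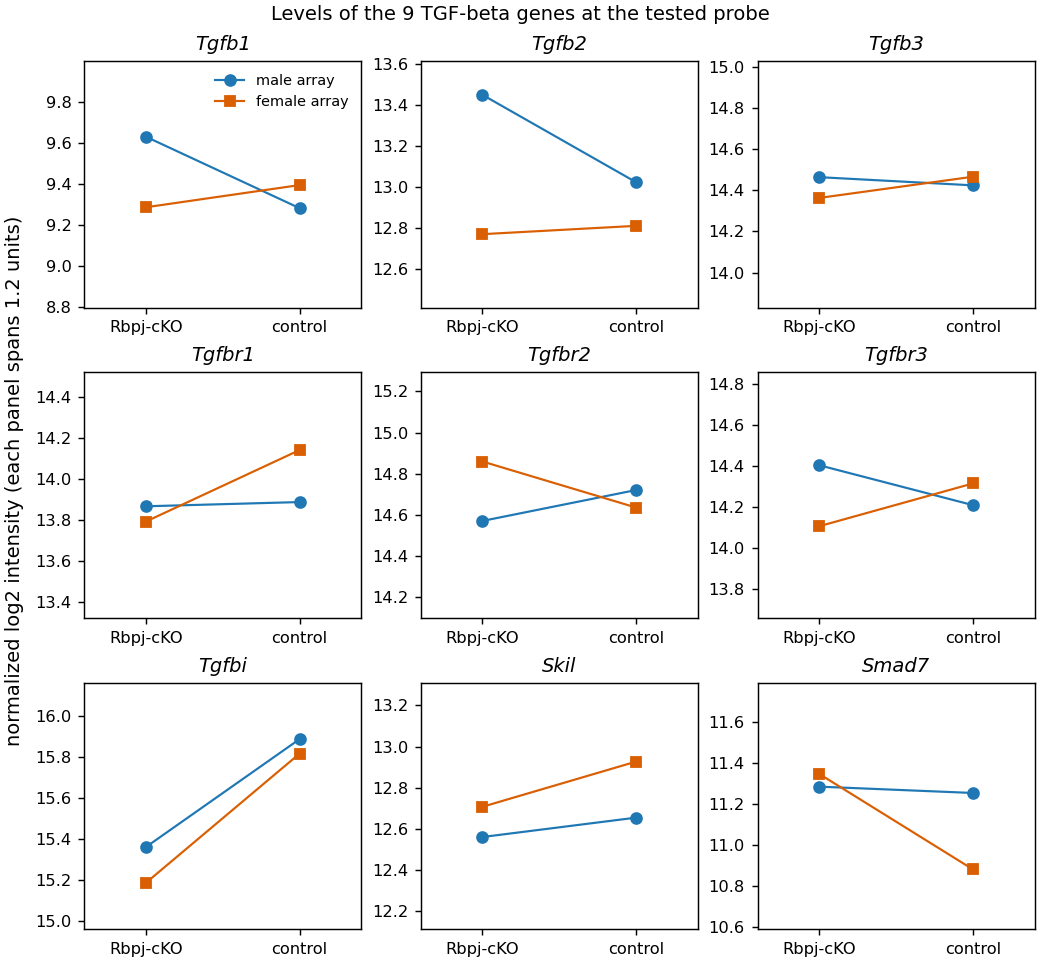
Normalized log2 intensity (vertical axis, each panel spanning the same range) in Rbpj-cKO and control ureters (horizontal axis) at the tested probe of each gene. Lines join the 2 channels of an array, and for Tgfbi both lines run from lower Rbpj-cKO levels of 15.36 and 15.19 to control levels of 15.89 and 15.82.

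The means of the other 2 targets had opposite signs, Skil below 0 and Smad7 above it. Skil had levels of 12.56 and 12.71 in Rbpj-cKO ureters and 12.65 and 12.93 in controls (male and female), and the groups overlapped. Its ratio was -0.09 and -0.22 at the probe at chr3:31021203-31021262 (mean -0.16 ± 0.09, SD, n = 2; limma 95% interval -0.58 to 0.27; adjusted p = 1.00). Its dimmer probe, printed above, gave 0.02 and -0.01.

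Smad7, the inhibitory Smad, had levels of 11.28 and 11.35 in Rbpj-cKO ureters and 11.25 and 10.88 in controls (male and female). Both Rbpj-cKO samples were above both controls, on the male array by a small margin. The ratios were 0.03 and 0.47 at its probe at chr18:75555371-75555430, with a mean of 0.25 ± 0.31 (SD, n = 2; limma 95% interval -0.20 to 0.69; adjusted p = 1.00). The mean thus rests mostly on the female array, and the SD exceeds it. With Agilent's processed signals Smad7 had -0.07 (male array) and 0.66 (female array), and so was no longer higher on both.

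Of the ligands, Tgfb1 and Tgfb2 were higher in Rbpj-cKO ureters on the male array and slightly lower on the female array. Tgfb1 had levels of 9.63 and 9.29 in Rbpj-cKO ureters and 9.28 and 9.39 in controls (male and female), so the groups overlapped. The ratios were 0.35 and -0.11 (mean 0.12 ± 0.32, SD, n = 2; limma 95% interval -0.33 to 0.57). Tgfb2 had levels of 13.45 and 12.77 in Rbpj-cKO ureters and 13.02 and 12.81 in controls at its brighter probe, again with overlap. There the ratios were 0.43 and -0.04 (mean 0.19 ± 0.33; interval -0.26 to 0.64). The dimmer Tgfb2 probe at chr1:188447534-188447593 gave -0.08 and -0.23, so the probes of this gene differed in the sign of their means. The brighter one, which shares most of its overlap with the Tgfb1 probe, had ratios close to those of Tgfb1, and the part of shared sequence in this was not tested.

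Tgfb3 differed least among the ligands. It had levels of 14.46 and 14.36 in Rbpj-cKO ureters and 14.42 and 14.47 in controls (male and female), at a probe at chr12:87397804-87397863, and the groups overlapped. The ratios were 0.04 and -0.10 (mean -0.03 ± 0.10, SD, n = 2; limma 95% interval -0.46 to 0.39). The 3 ligands each had a limma adjusted p of 1.00.

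The mean ratios of the 3 receptors lay between -0.18 and 0.04. Tgfbr1, the type I receptor kinase, had levels of 13.87 and 13.79 in Rbpj-cKO ureters and 13.89 and 14.14 in controls (male and female). Both Rbpj-cKO samples were below both controls, with ratios of -0.02 and -0.35. The mean ratio was -0.18 ± 0.23 (SD, n = 2; limma 95% interval -0.62 to 0.25) at the probe at chr4:47427736-47427795. The dimmer Tgfbr1 probe at chr4:47424946-47425005, with a weakest channel of 4.73 times background, gave -0.18 and -0.07, and so was lower on both arrays too. With median centring in place of loess the brighter probe had 0.25 (male array) and -0.51 (female array), and so was no longer lower on both.

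Tgfbr2, the type II receptor kinase, had levels of 14.57 and 14.86 in Rbpj-cKO ureters and 14.72 and 14.63 in controls (male and female) at its brighter probe at chr9:115997155-115997214. The groups overlapped, with ratios of -0.15 and 0.22 (mean 0.04 ± 0.27, SD, n = 2; limma 95% interval -0.40 to 0.48). The dimmer probe over the end of the coding sequence had the opposite order, 0.18 and -0.21. Tgfbr3 had levels of 14.40 and 14.11 in Rbpj-cKO ureters and 14.21 and 14.32 in controls at its single probe at chr5:107535818-107535877. Its ratios were 0.19 and -0.21 and cancelled in the mean (-0.01 ± 0.29; interval -0.45 to 0.44). The 3 receptors each had a limma adjusted p of 1.00, and the intervals of Tgfbr2 and Tgfbr3 do not exclude a change of the size seen for Tgfbr1.

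**Figure D2:**
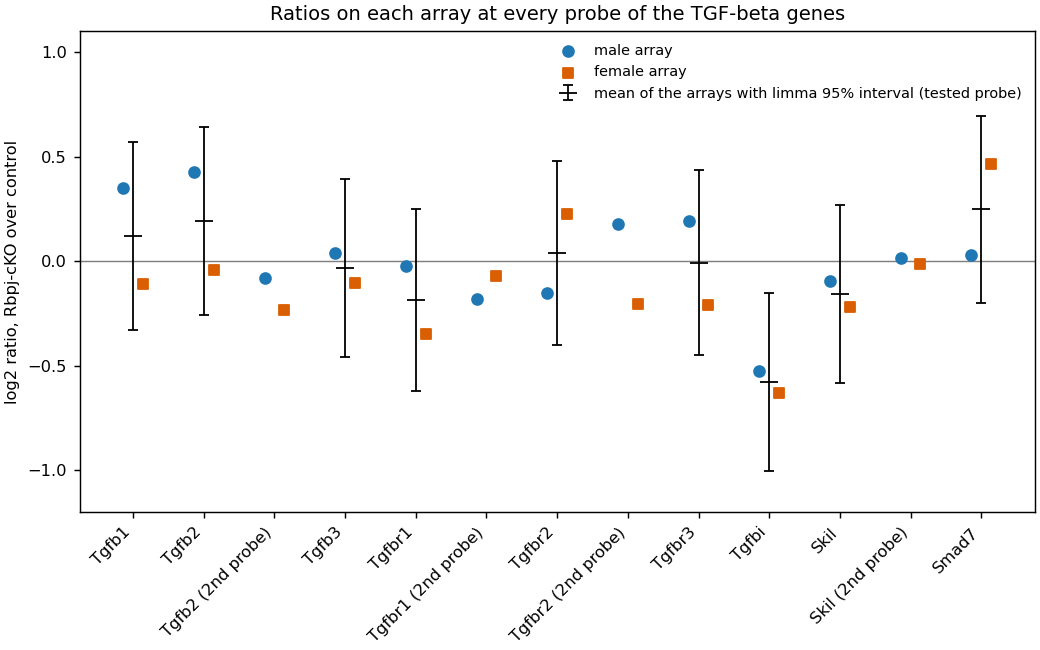
Log2 ratio of Rbpj-cKO over control (vertical axis) on the male array (circles) and the female array (squares) at each of the 13 probes (horizontal axis). Black bars are the mean of the arrays with the limma 95% interval at the tested probe, and the interval of Tgfbi (-1.0 to -0.15) is the one that does not cross 0.

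For 3 genes the tested probe was printed on 10 spots of each array, which gives the spread within an array. The 10 Tgfb1 spots on the male array ranged from 0.26 to 0.47 (SD 0.08), and those on the female array from -0.33 to 0.11 (SD 0.17). All male spots were thus above all female ones, and the arrays differed by more than the spread between spots. The Tgfb3 spots ranged from 0.0031 to 0.10 on the male array and from -0.31 to 0.05 on the female array. The 9 Skil spots that carried no outlier mark ranged from -0.14 to -0.04 (male array) and from -0.41 to -0.0027 (female array). Skil was thus below 0 in every one of these spots. The spread between spots followed their order on the array. From spot 1 to spot 10 the ratios of all 3 genes tended to rise on the female array (Skil -0.41 to -0.0027, Tgfb3 -0.31 to 0.05). On the male array they tended to fall (Skil -0.05 to -0.13, Tgfb3 0.09 to 0.02). The dyes are swapped between the arrays, so as AlexaFluor647 over AlexaFluor555 the ratios tended to fall on both. The cause was not tested, and probes with a single spot, such as that of Tgfbi, give no view of it. Spots of an array share its 2 RNA samples, so they show variation within the array and add no replicate.

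**Figure D3:**
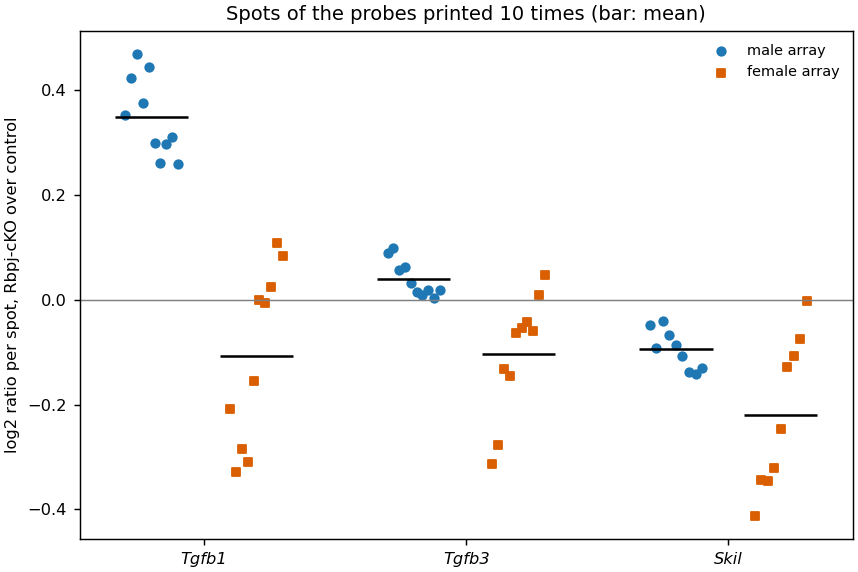
Log2 ratio of Rbpj-cKO over control (vertical axis) of single spots for the genes whose probe was printed 10 times, on the male array (circles) and the female array (squares), with a bar at the mean. Tgfb1 spots lie at 0.26 to 0.47 on the male array and at -0.33 to 0.11 on the female array.

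Across the 9 genes, 3 were lower on both arrays (Tgfbi, Tgfbr1 and Skil), 1 was higher on both (Smad7) and 5 had opposite signs (Tgfb1, Tgfb2, Tgfb3, Tgfbr2 and Tgfbr3). These counts depend on the scaling for every gene but Tgfbi, Tgfbr2 and Tgfbr3. With Agilent's processed signals 4 were lower on both arrays (Tgfb3 added), 2 were higher (Tgfb1 and Tgfb2, not Smad7) and 3 had opposite signs. With median centring Tgfbi was the 1 gene lower on both arrays, Smad7 the 1 gene higher on both, and 7 had opposite signs, since Tgfbr1 had 0.25 and -0.51 and Skil had 0.11 and -0.29. Over all features with loess, 19.7% were lower on both arrays, 21.7% were higher on both and 58.6% had opposite signs. Levels of Rbpj-cKO and control ureters did not overlap for 3 of the 9 (Tgfbi, Tgfbr1 and Smad7), against 27.5% of all features. The median ratio of the 9 genes was 0.03 on the male array, -0.11 on the female array and -0.01 for the mean, beside a median of 0.01 on each array over all features. Over all features the 2 arrays had a correlation of -0.178, given as a description, since features share arrays and dyes. By distance in the 2 ratios, the named features most like Tgfbi were Otogl (-0.53 and -0.62), Serpine2 (-0.55 and -0.63) and Lilr4b (-0.54 and -0.60). A total of 16 features, Tgfbi included, lay within 0.1 of it.

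**Figure D4:**
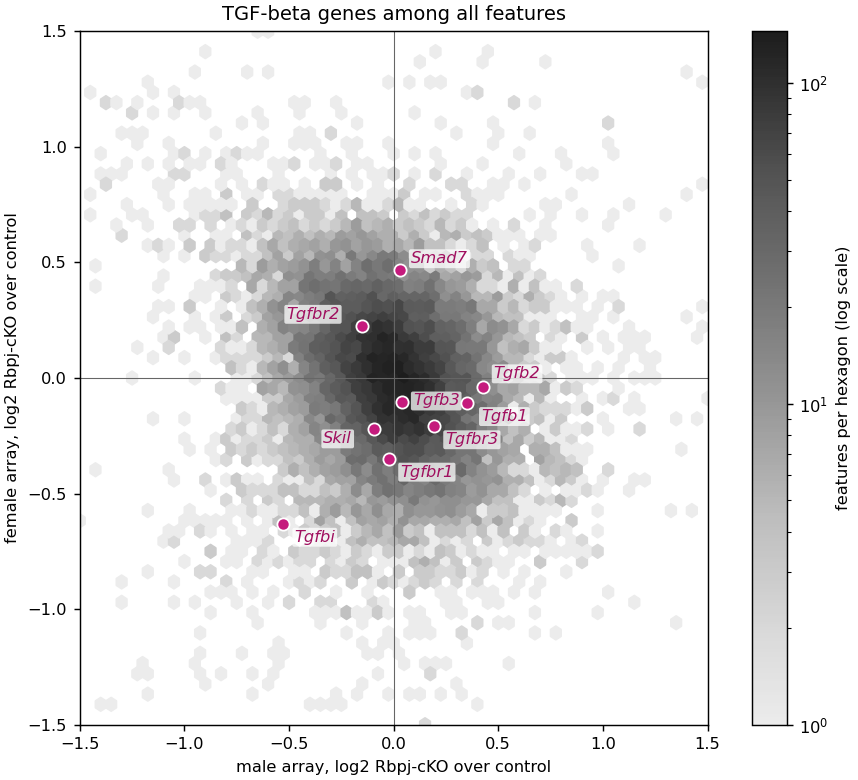
Log2 ratio of Rbpj-cKO over control on the male array (horizontal axis) and the female array (vertical axis), with the number of features per hexagon in grey and the 9 TGF-beta genes as points. Tgfbi (-0.53 and -0.63) lies in the lower left, away from the other 8; 98 features lie outside the axes.

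The wider pathway was described by 7 lists with 93 genes, of which 89 were measured. None of the 89 passed the limma test over all features (lowest adjusted p = 0.289), and 7 (7.87%) had an unadjusted p under 0.05, against 3.37% of all features. The same number, 23 (25.8%), were higher on both arrays as were lower on both, against 21.7% and 19.7% of all features. The median over the 89 genes was -0.02. These lists were chosen with earlier results of these data known, so the shares are a description and no test of enrichment.

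Genes that hold or release latent ligand had a median of -0.01 (14 of 15 measured), with 5 higher and 5 lower on both arrays. The latent TGF-beta binding protein gene Ltbp2 was the lowest at -0.63 (-0.13 and -1.14, so mostly on the female array), and Itgb6, an integrin subunit of epithelia that activates latent TGF-beta, was the highest at 0.38 (0.47 and 0.29). Other receptors and receptor adaptors had a median of -0.08 (8 of 9 measured). The adaptor gene Zfyve9 (SARA) had -0.33 and the endothelial co-receptor gene Eng 0.07, the lowest and highest with 1 sign on both arrays. The Smad mediators and nuclear partners (7 of 7 measured) lay close to 0, with a median of -0.05, and included Smad4 at -0.07 and Smad3 at 0.08.

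Intracellular inhibitors had a median of 0.03 (10 of 10 measured, male array 0.06, female array 0.26). Of these, 4 were higher and 0 lower on both arrays, against 21.7% and 19.7% of all features. Among the inhibitors Smad6, the other inhibitory Smad, was the highest at 0.29 (0.09 and 0.49). Tgif1, a repressor that binds Smad proteins, had 0.05. Smad6 and Smad7 each had a larger ratio on the female than on the male array. Genes of proteins that bind TGF-beta outside the cell, proteoglycans among them (6 of 6 measured), had a median of 0.20 (male array 0.32, female array 0.08). Of these, Dcn and Lum are also among the fibroblast markers below. Asporin, from Aspn, had the lowest mean of all the pathway genes at -0.87 (-1.05 and -0.69; limma adjusted p = 0.289), and decorin, from Dcn, had 0.34 (0.51 and 0.18).

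Genes that TGF-beta is known to induce (30 of 30 measured) had a median of -0.11 (male array 0.13, female array -0.24). Over all features 19.7% were lower and 21.7% higher on both arrays, and of these 30 genes 10 were lower and 2 higher on both. The cell cycle inhibitor gene Cdkn2b was the lowest at -0.47 (-0.42 and -0.52), and Timp1, an inhibitor of matrix proteases, was the highest with 1 sign at 0.37 (0.40 and 0.35). Activin, nodal and related ligands with their inhibitors and receptors had a median of 0.11 (14 of 16 measured), split by array into 0.24 (male) and -0.07 (female). The activin inhibitor gene Fst had -0.52 (-0.18 and -0.86) and the ligand gene Gdf10 had 0.49 (0.41 and 0.58).

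**Figure D5:**
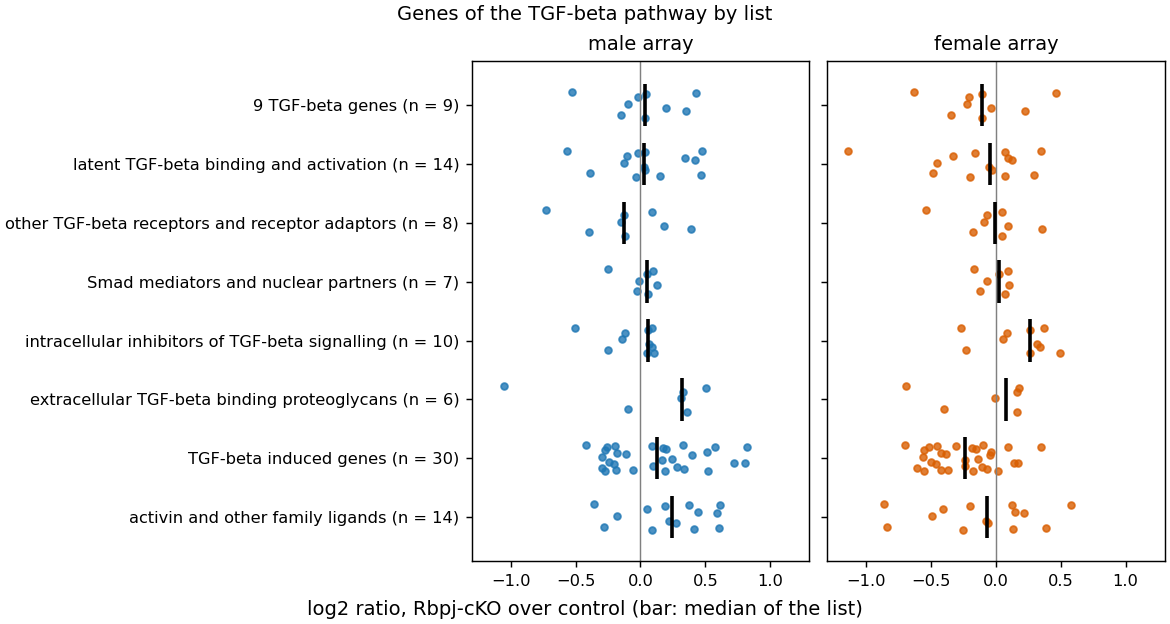
Log2 ratio of Rbpj-cKO over control (horizontal axis) of single genes, by list (rows), on the male array (left) and the female array (right), with a black bar at each list's median. The 30 induced genes have medians of 0.13 (male array) and -0.24 (female array).

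Cell types were described with marker lists, and all 6 smooth muscle and all 7 urothelial markers were well above background in all 4 channels. The same held for each measured marker of every other list, so it does not identify the tissue. Beside the lower Tgfbi values, the 6 smooth muscle markers were all lower on both arrays (summed linear level of 605175 and 606445 in Rbpj-cKO ureters against 768073 and 696494 in controls, male and female). Of the 7 urothelial markers, 6 were higher on both arrays (923258 and 930118 in Rbpj-cKO ureters against 733327 and 790128 in controls). Of the 6 macrophage markers 3 were lower on both arrays, with summed levels of 43685 and 31545 in Rbpj-cKO ureters against 38169 and 41459 in controls. Of the 5 fibroblast markers 1 was lower and 2 were higher on both arrays, with sums of 678288 and 605949 in Rbpj-cKO ureters against 505187 and 593030 in controls. None of the markers in these 4 lists passed the test. Over all features 19.7% were lower and 21.7% higher on both arrays. Of the 6 skeletal and cardiac muscle markers 5 were lower on both arrays and 3 fell past the test (Myh6, Ckm and Myl4), with sums of 86936 and 82066 in Rbpj-cKO ureters against 151847 and 137601 in controls. Endothelial markers had lower sums in both Rbpj-cKO samples (47728 and 48142) than in controls (52750 and 52437). Of these 5 markers, 2 were lower on both arrays. Mesothelial markers had higher sums (184136 and 208152 in Rbpj-cKO ureters against 171312 and 149814 in controls). Of these 6 markers, 3 were higher on both arrays, and the median ratio was 0.47 (male) and -0.05 (female). Krt19 (0.01 and 0.61) was the brightest of the 6 and weighed most in the sums. Of the 6 nephron markers 4 were measured, and of these 3 were higher and 1 (Cited1) was lower on both arrays (median ratio 0.60). Their sums were 10556 and 13140 in Rbpj-cKO ureters and 12972 and 14129 in controls. Cited1 (-0.70 and -0.49) was the brightest of the 4 and weighed most in these sums. The sums of the other 2 lists, like those of the macrophage markers, ran in opposite directions on the arrays. Red cell markers summed to 398771 and 494970 in Rbpj-cKO ureters and 445378 and 350116 in controls, and sympathetic neuron markers to 6369 and 7937 in Rbpj-cKO ureters and 3959 and 25139 in controls, where the female control stood apart. The part of these cell types in the Tgfbi values was not tested.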

How the data were processed

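Total RNA of ureters was hybridised to 2 two-colour Agilent arrays with the dyes swapped, per the labels. The scanner files deposited by the authors give an intensity for each spot, made with Feature Extraction 10.7.3.1 (per the submitters' processing notes), with mean and background signals not normalized and processed signals dye-normalized within the array, per the file headers. The deposited value table holds a score per probe; its making was not given in the sources used here. Compared with the processed signals of 24991 bright single-spot probes, 99.8% (male) and 99.9% (female) of its values were signed folds of Rbpj-cKO over control within 0.001 on the log2 scale.

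Mean signals were corrected with normexp (offset 50) and loess in limma 3.58.1 (R 4.3.3), with control spots given no weight in the loess fit. The 200 (male) and 274 (female) spots marked as outliers were left out when the spots of a probe were averaged. Levels were scaled between arrays with Aquantile. Probes well above background on both arrays in 1 group (26224 of 39429) were kept, and a gene was tested at its brightest probe. Of all probes, 26412 were named through their RefSeq accession and 13017 kept the file's name. Ratios were tested two-sided with lmFit and eBayes (10.3 prior degrees of freedom added to 1), with Benjamini-Hochberg adjustment over 20989 features at 0.05. The step was also run on simulated data to check the code, and no result here rests on that run. Both arrays share a slide and scan. Probe positions are on mm9, and apart from what is said above the exon or UTR they lie in was not analysed here.

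The genes and lists were chosen with earlier results of these data known. All 9 genes are named, then from each list the highest and lowest gene with 1 sign on both arrays, and the 3 named features nearest to the gene furthest from 0. The number of arrays limits the precision.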

Additional observations from a re-analysis of the deposited data

Results flagged for a closer look

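Of the 9 TGF-beta genes, 5 had ratios of opposite sign on the 2 arrays, one of males and one of females (log2 of Rbpj-cKO over control). Tgfb1 had 0.35 (male) and -0.11 (female), Tgfb2 had 0.43 and -0.041, and Tgfb3 had 0.040 and -0.10. Tgfbr3 had 0.19 and -0.21, and Tgfbr2 ran the other way with -0.15 and 0.22. Opposite signs were found for 58.6% of all features. With Agilent's processed signals 3 genes had opposite signs, and Tgfb1, Tgfb2 and Tgfb3 each had 1 sign on both arrays. These differences were not tested, since each sex is 1 array, and sex and dye orientation cannot be told apart.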

How the results depend on the processing

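None of the 9 genes passed the test under any of the 8 alternatives that gave one, and Tgfbi had means from -0.62 to -0.54 with a lowest adjusted p of 0.796 (limma, intensity trend in the prior variance). The number of features past the test, 27 in the text, was 10 with Agilent's processed signals and 10 where the probes of a gene were averaged, 42 with every probe as a feature of its own and 41 with an intensity trend. It was 0 with median centring, with the deposited value table and without a filter on dim probes. Means close to 0 changed sign: Tgfbr2 to -0.0065 with processed signals and -0.00070 with the value table, and, with median centring, Tgfb3 to 0.022 and Tgfbr3 to 0.053. The other genes kept the sign of their mean, and Tgfbi was lower on both arrays, in all 8 settings. Of the 9 genes, 2 were higher on both arrays with processed signals, 2 with the value table and 2 with averaged probes (1 in the text), 3 had opposite signs with processed signals (5 in the text), and 1 was lower on both with median centring (3 in the text). The median of the latent ligand list turned positive with processed signals (0.056), median centring (0.067), the value table (0.062) and no filter on dim probes (0.023). The median of the Smad mediators was -0.028 with processed signals, 0.0053 with median centring, -0.022 with the value table and 0.0011 with averaged probes, and that of the intracellular inhibitors was -0.0098 with averaged probes. Leaving out each array in turn gave medians from -0.11 to 0.031 for the 9 genes, from 0.020 to 0.049 for the Smad mediators and from 0.057 to 0.26 for the inhibitors, with no test. The cause was not tested. A slide block was not run, because both arrays lie on the same slide. The test uses the ratio within each array, which pairs an Rbpj-cKO with a control RNA of the same sex, and no other pairing was fitted.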
